A study of Mus musculus with 4 samples.

Results

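Iron handling in sorted cardiac populations titled as macrophages was followed through 10 genes, chosen by name for their roles in iron transport, storage and recycling: Slc40a1, Tfrc, Slc11a1, Slc11a2, Slc48a1, Fth1, Ftl1, Ncoa4, Blvrb and Ireb2. They were 10 of 19505 genes with a symbol on the array, and each had 1 probe set. The 4 libraries came from wild-type C57BL/6N mice aged 15 to 16 weeks, all after transverse aortic constriction (TAC), an operation that narrows the aorta and loads the left ventricle with pressure. The series describes them as the control arm of its TAC mice, and no unoperated heart was analysed here. Cells of 6 hearts were mixed, and 4 sorted populations, titled Ccrl2, CD74, CD163 and Trem2 macrophages, gave 1 Clariom S array each. The labels give either 8 weeks or 1 week after TAC for the same libraries. They also name CD9 as the marker of the library titled CD74, and Lyve1 in one protocol where the title has CD163, so libraries are called by title below.

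Macrophages take up iron as transferrin, as free metal and inside the red cells, haemoglobin and debris they engulf. Haem is opened by haem oxygenase, the pigment it leaves is reduced by biliverdin reductases, and the released iron is either stored in ferritin or exported through ferroportin, the product of Slc40a1. Iron regulatory proteins, one of them encoded by Ireb2, bind RNA hairpins in ferritin, ferroportin and transferrin receptor messages, so that much of this control acts on messages and protein rather than on transcription.

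All levels below are the deposited log2 values, and differences are log2 units unless a fold is named. A level was counted as above background when it exceeded a ceiling, set in each library by the upper tail of 1498 genes that macrophages are not known to use (smell, pheromone and taste receptors, hair keratin-associated proteins), and is called dim where it did not. The ceilings were 5.51 for Trem2, 5.67 for Ccrl2, 6.28 for CD163 and 6.53 for CD74. A gene was called when 2 libraries lay at least 2-fold (1 log2 unit) apart as measured and the higher one exceeded its ceiling. Where the lower value was dim its distance from the other is uncertain, and the fold given is then the bound against the ceiling. With 1 array per population no spread, test or p-value was possible, and precision is limited by having 4 arrays. In such bulk material fewer cells of a type and less RNA per cell cannot be told apart.

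The libraries differed in breadth. Between 3621 genes (CD74) and 8144 genes (Trem2) lay above the ceiling, and the median difference over tested genes was 0.96 for Ccrl2 minus CD74, 1.01 for Trem2 minus CD74 and -0.69 for CD163 minus Trem2. After quantile normalization, which forces the columns to 1 distribution, these medians were 0.36, 0.39 and -0.20. Macrophage markers were above the ceiling in 11 of 11 cases outside CD74, with list medians of 13.30 (Trem2), 13.60 (CD163) and 15.37 (Ccrl2), and in 8 of 11 in CD74, with a median of 8.12. There the T and NK cell list had a higher median, 9.35, and the receptor genes Fcgr1, Mertk and Cx3cr1 were not above the ceiling. Markers of T and NK cells exceeded it in 10 of 11 cases in CD74, against 1 in Ccrl2, 2 in CD163 and 7 in Trem2, while neutrophil markers did so in 7 of 8 cases in Trem2 and in 1 to 4 elsewhere. Monocyte markers exceeded it in 6 of 6 cases in Trem2, 4 in CD74, 3 in Ccrl2 and 1 in CD163, and B cell markers in 5 of 5 in Trem2 and Ccrl2, 4 in CD74 and 1 in CD163. Endothelial markers exceeded the ceiling in 5 of 6 cases in Ccrl2 and Trem2, 3 in CD163 and 1 in CD74. Fibroblast markers did so in 4 of 5 in Ccrl2 and Trem2 and 2 in CD163 and CD74. Cardiomyocyte markers did so in 7 of 7 in Ccrl2 and Trem2, 6 in CD163 and 4 in CD74. Of 4 measured erythroid markers, at most 1 exceeded the ceiling in any library, and Alas2, the haem synthesis enzyme of red cell precursors, was dim in each, at 5.09 to 5.30.

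**Figure D1:**
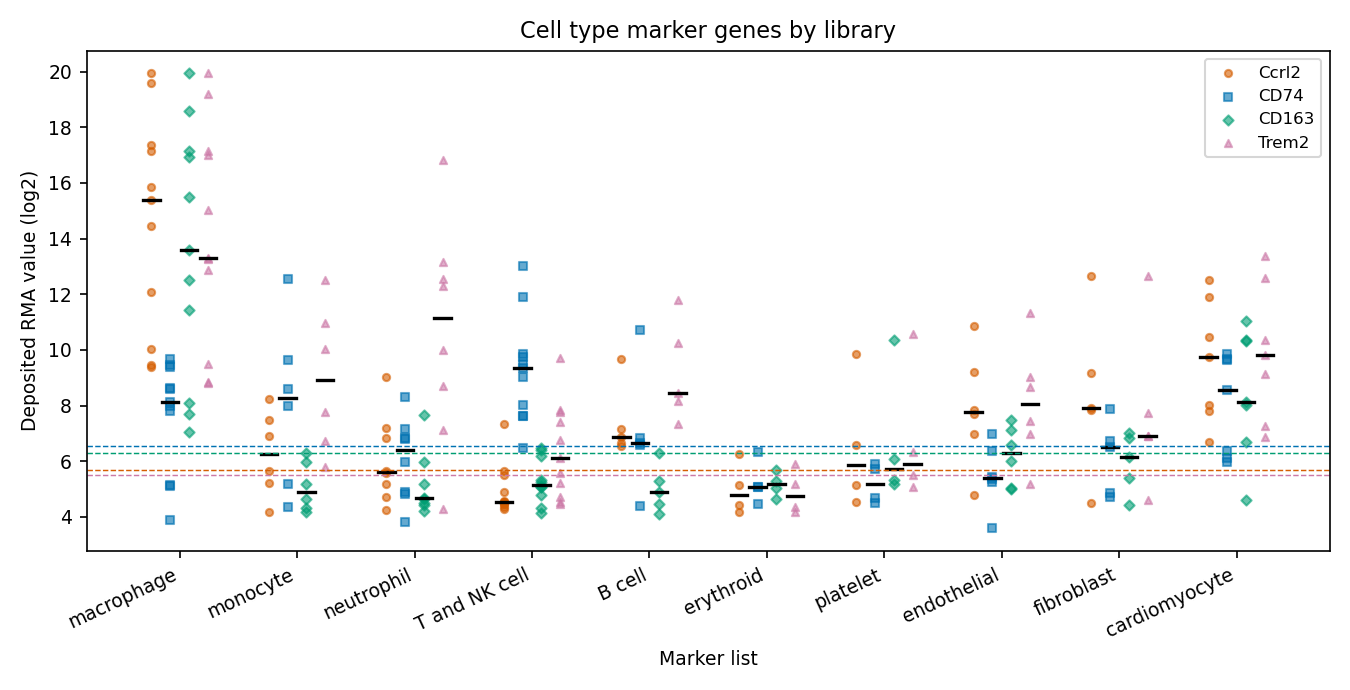
Deposited log2 values of marker genes (points) in the 4 libraries by cell type list, with the list median (black bar) and each library's background ceiling (dashed line in its colour). Macrophage markers had a median of 8.12 in CD74 and of 13.30 or more elsewhere, and the T and NK cell list had its highest median, 9.35, in CD74.

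Most of the iron genes were lowest in the CD74 library. Slc11a1, Slc11a2, Slc48a1, Ftl1, Ncoa4 and Blvrb, 6 of the 10, were called lower there than in each of the other 3 libraries, as were 15.6% of 9346 genes. With dim values set at their ceiling, Slc11a1, Slc11a2, Ftl1 and Ncoa4 (4 of 10, against 10.2% of genes) were still at least 2-fold below each, while Slc48a1 and Blvrb were not. Quantile normalization of the measured values left 5 of the 6, all but Slc11a2. Beside this, all 11 macrophage markers were at least 2-fold lower in CD74 than in each other library, by a median of 6.79 against Ccrl2, 4.18 against CD163 and 4.95 against Trem2, and the part of this in the low iron gene values was not tested. Of the other members, Tfrc was the only one called lower in CD163 than in each other library (4.72% of all genes), and Ireb2 the only one called higher in Trem2 than in each (5.66% of all genes). Both calls held after quantile normalization, but with dim values set at their ceiling Ireb2 kept its distance and Tfrc did not, since its CD163 value was dim. No other member was apart from all 3 other libraries, with 0 above and 0 below in Ccrl2 (3.65% and 0.171% of all genes), 0 above in CD74 (4.42%) and in CD163 (2.82%), and 0 below in Trem2 (0.214%).

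The promoters of the members that were low together in CD74 were compared for a few short motifs only. RefSeq windows on GRCm38.p6 were found for 7 of the 10 members, among them 4 of these 6, and Tfrc is added as a member with another pattern. Each line gives the 250 bases upstream of an annotated start, read on the strand of the gene, and where a gene had several starts the window richest in G and C was taken. Capitals mark 6 short motifs searched on both strands. The antioxidant response core read by NRF2 and BACH1 was searched as TGACNNNGC and as TGAGNNNGC. ACGTG stood for the core of hypoxia and E-box elements, TATAA for the core of a TATA box, CCAAT for the box of that name and GAGGAA for the core bound by PU.1. None of the marked stretches overlap.
Ftl1 (chr7:45459887-45460136, minus strand): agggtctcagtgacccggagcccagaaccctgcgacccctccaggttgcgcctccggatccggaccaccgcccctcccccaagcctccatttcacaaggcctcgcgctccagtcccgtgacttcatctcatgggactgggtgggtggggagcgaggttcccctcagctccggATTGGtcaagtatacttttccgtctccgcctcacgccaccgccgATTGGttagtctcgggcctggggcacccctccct
Ncoa4 (chr14:32165539-32165788, plus strand): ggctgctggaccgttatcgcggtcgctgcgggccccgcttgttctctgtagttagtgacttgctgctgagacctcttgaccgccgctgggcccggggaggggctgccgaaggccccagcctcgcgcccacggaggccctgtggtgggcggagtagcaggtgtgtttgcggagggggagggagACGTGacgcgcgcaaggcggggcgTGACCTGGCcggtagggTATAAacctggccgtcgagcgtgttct
Slc11a1 (chr1:74374953-74375202, plus strand): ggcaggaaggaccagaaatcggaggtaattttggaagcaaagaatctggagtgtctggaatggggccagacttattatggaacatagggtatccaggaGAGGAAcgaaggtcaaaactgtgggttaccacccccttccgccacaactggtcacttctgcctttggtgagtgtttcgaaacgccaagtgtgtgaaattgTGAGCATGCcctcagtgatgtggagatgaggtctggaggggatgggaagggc
Blvrb (chr7:27447728-27447977, plus strand): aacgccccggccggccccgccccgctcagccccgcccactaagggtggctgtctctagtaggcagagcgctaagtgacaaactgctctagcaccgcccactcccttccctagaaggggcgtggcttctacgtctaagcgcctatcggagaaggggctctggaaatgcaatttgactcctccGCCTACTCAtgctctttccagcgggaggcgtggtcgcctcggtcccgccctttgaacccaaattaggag
Tfrc (chr16:32608872-32609121, plus strand): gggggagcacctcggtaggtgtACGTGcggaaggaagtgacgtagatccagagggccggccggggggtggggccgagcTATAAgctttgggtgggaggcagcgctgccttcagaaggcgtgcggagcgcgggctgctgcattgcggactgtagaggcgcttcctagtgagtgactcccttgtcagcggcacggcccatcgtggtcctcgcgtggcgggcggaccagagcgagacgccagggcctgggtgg

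No motif was shared by the 4 promoters of the CD74-low members. An antioxidant response core began 44 bases before the Ncoa4 start (TGACCTGGC), 52 before the Slc11a1 start (TGAGCATGC) and, on the opposite strand, 69 before the Blvrb start (GCCTACTCA as read along the gene). One or other form of this core was in 23.0% of 32851 promoter windows of the same length. Ncoa4 had 3 annotated starts and Blvrb 2, and only the window shown for each held the core. The windows of Ftl1, Tfrc, Fth1 and Ireb2 did not hold it. The Ftl1 window held the CCAAT box on the opposite strand 78 and 34 bases before the start, a motif present in 33.9% of windows. The PU.1 core, found in 23.3% of windows, lay 152 bases before the Slc11a1 start. The Tfrc window held ACGTG 228 bases before its start, and the Ncoa4 window held it 68 bases before, against 16.6% of windows. TATAA, in 22.8% of windows, lay 27 bases before the Ncoa4 start and 172 before that of Tfrc. The window of the other Tfrc start held neither ACGTG nor TATAA, but a CCAAT box. ACGTG was also in a further Ncoa4 window and in the other Blvrb window, so the motifs found depended on the start chosen. A match of this kind describes letters and is not evidence of a bound factor.

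**Figure D2:**
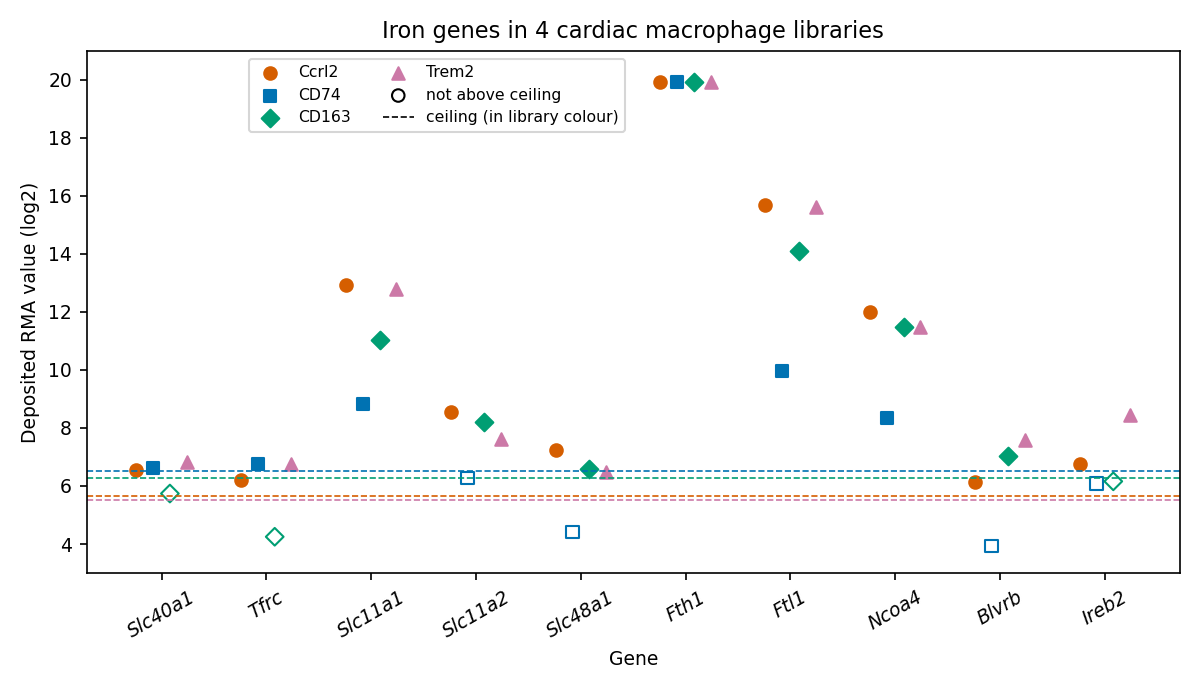
Deposited log2 value of each iron gene (x axis) in the 4 libraries, filled where above the background ceiling (dashed lines) and open where not. Fth1 was at the top of the scale in each library, and the CD74 squares of Slc11a1, Ftl1 and Ncoa4 lay below the other 3.

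The gene for iron export lay close to background, and its separation depended on the scaling. Slc40a1 encodes ferroportin, the iron exporter of macrophages, and had 6.81 in Trem2, 6.61 in CD74, 6.56 in Ccrl2 and 5.74 (dim) in CD163. The first 3 lay within 0.25 of each other and not far above background. CD163 lay 1.07 below Trem2, which counts as at least 1.44-fold once CD163 is set at its ceiling, and the difference was -0.80 after quantile normalization, no longer 2-fold. Against CD74 the opposite happened, with CD163 minus CD74 at -0.87 on the deposited values and -1.395, past 2-fold, after quantile normalization. The place of CD74 in this order depended on scaling, since Trem2 minus CD74 was 0.20 on the deposited values and -0.60 after quantile normalization. Ccrl2 minus CD74 was -0.05, 0.11 after centring the columns on their medians and -0.70 after quantile normalization.

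The gene for uptake through transferrin was lowest in the CD163 library. Tfrc encodes transferrin receptor 1, which carries iron-loaded transferrin into the cell, and had 6.76 in Trem2, 6.75 in CD74, 6.20 in Ccrl2 and 4.25 (dim) in CD163. CD163 lay 2.51 below Trem2, 2.50 below CD74 and 1.95 below Ccrl2, while the other 3 lay within 0.56 of each other. Because the CD163 value was dim, these amount to at least 1.39-fold against Trem2 and 1.39-fold against CD74, and no fold against Ccrl2, whose level was under the CD163 ceiling. After quantile normalization the gaps of CD163 were -2.31 to Trem2, -3.16 to CD74 and 1.96 in favour of Ccrl2. The same scaling put Tfrc highest in CD74, 1.20 above Ccrl2. Other lists were low in CD163 too: B cell markers were called lower there than in Ccrl2 in 5 of 5 tested cases, than in CD74 in 4 of 4 and than in Trem2 in 5 of 5, and monocyte markers were lower than in CD74 in 4 of 4 and than in Trem2 in 6 of 6. The B cell list had a median of 4.89 in CD163 against 6.65 to 8.46 elsewhere. Endothelial markers were called lower in CD163 than in Ccrl2 in 4 of 5 tested cases, and than in Trem2 in 4 of 5. Cardiomyocyte markers were lower than in each of these in 5 of 7, and fibroblast markers in 4 of 4 and 2 of 4. Against CD74, endothelial markers were instead higher in CD163 in 3 of 4 cases and cardiomyocyte markers in 2 of 6. Fibroblast markers were higher in 1 of 3 and lower in 1. The part of any of these cells in the Tfrc level was not tested.

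Among the transporters of vesicles, Slc11a1 had the widest range on the deposited values. After quantile normalization it spanned 2.10 between Ccrl2 and CD74, less than the 2.66 of Slc48a1. Slc11a2 then spanned 2.115 between CD163 and CD74, slightly more than Slc11a1. The CD74 values of Slc48a1 and Slc11a2 were dim. Slc11a1 encodes NRAMP1, which pumps divalent metals out of the phagosome of macrophages and neutrophils, and whose C57BL/6 allele is known to be poorly functional. Its level was 12.92 in Ccrl2, 12.78 in Trem2, 11.04 in CD163 and 8.81 in CD74, above the ceiling in each. Ccrl2 and Trem2 lay 0.14 apart, and CD74 was 17.3-fold below Ccrl2, 15.7-fold below Trem2 and 4.69-fold below CD163. CD163 was 3.68-fold below Ccrl2 and 3.34-fold below Trem2, but after quantile normalization these 2 gaps were under 2-fold, at 0.68 for Ccrl2 minus CD163 and -0.38 for CD163 minus Trem2, while the excess over CD74 was 2.10 for Ccrl2, 1.81 for Trem2 and 1.42 for CD163. Neutrophils also use this gene, and their markers were at least 2-fold higher in Trem2 than in Ccrl2 in 7 of 7 cases, by a median of 5.30. Their part in the Slc11a1 level of either library was not tested.

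On the deposited values Slc11a2 and Slc48a1 shared an order. For Slc48a1 this rested on a CD163 minus Trem2 difference of 0.09, which was -0.08 after centring the columns on their medians. Slc11a2 encodes DMT1, which moves ferrous iron out of the endosome into the cytosol, and had 8.55 in Ccrl2, 8.20 in CD163, 7.63 in Trem2 and 6.27 (dim) in CD74. Slc48a1 encodes HRG1, which brings haem out of the phagolysosome, and had 7.25 in Ccrl2, 6.58 in CD163, 6.49 in Trem2 and 4.42 (dim) in CD74. The 3 libraries other than CD74 spanned 0.92 for Slc11a2 and 0.76 for Slc48a1, so none of them was called against another. Against CD74, Slc11a2 was at least 4.06-fold higher in Ccrl2, 3.18-fold in CD163 and 2.14-fold in Trem2, the last at 0.59, under 2-fold, after quantile normalization. Slc48a1 was at least 1.65-fold higher in Ccrl2 and 1.04-fold in CD163, and its Trem2 level lay under the CD74 ceiling, so no fold is given there. Over the 4 libraries the centred values of these 2 genes lay 0.55 apart (Euclidean distance), the closest of the 45 pairs of members, although both CD74 values were dim. Quantile normalization turned the order of CD163 and Ccrl2 for Slc11a2, with Ccrl2 minus CD163 at -0.69, and put CD163 1.52 above Trem2. For Slc48a1 it left Ccrl2 0.16 above CD163, so the order was then not shared.

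For storage, the heavy ferritin chain could not be compared. Fth1 encodes the chain that oxidises iron for deposition in the ferritin shell and had 19.93 in all 4 libraries, the top of the scale, where a difference cannot be seen. It was 1 of 6 genes on the array at that value in every library. The light chain gene Ftl1, whose product favours mineral formation inside the shell, had 15.70 in Ccrl2, 15.61 in Trem2, 14.11 in CD163 and 9.97 in CD74. Ccrl2 and Trem2 lay 0.09 apart, with the sign turned after quantile normalization (-0.02). CD74 was 53.1-fold below Ccrl2, 49.9-fold below Trem2 and 17.6-fold below CD163, the largest difference among the members in each of these pairs on the deposited values. Of all tested genes, 1.48% had a larger excess in Ccrl2 over CD74, 1.03% in Trem2 and 2.70% in CD163. CD163 was 3.01-fold below Ccrl2 and 2.83-fold below Trem2, gaps that came to 0.28 for Ccrl2 minus CD163 and -0.30 for CD163 minus Trem2 after quantile normalization. By rank, Ftl1 stood above 97.8% of genes in CD74 and above 99.3% in each other library, so it was among the brightest probe sets in each. Both ferritin genes have processed pseudogene copies, and whether the probes tell these apart is not given in the sources used here.

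Ncoa4, the receptor that delivers ferritin to the lysosome for iron release, had 11.98 in Ccrl2, 11.47 in CD163, 11.47 in Trem2 and 8.36 in CD74. The 3 libraries other than CD74 lay within 0.51 of each other. CD74 was 12.3-fold below Ccrl2 and 8.63-fold below both CD163 and Trem2, and after quantile normalization the gaps were 1.62 for Ccrl2, 2.37 for CD163 and 1.03 for Trem2. On that scale CD163 became the highest, 1.34 above Trem2 and 0.74 above Ccrl2 (Ccrl2 minus CD163 -0.74).

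Blvrb was highest in Trem2 on the deposited values. It encodes biliverdin reductase B, which also acts as a flavin reductase, and had 7.60 in Trem2, 7.03 in CD163, 6.14 in Ccrl2 and 3.94 (dim) in CD74. Trem2 was 2.75-fold above Ccrl2, a gap that was -1.05 after quantile normalization for Ccrl2 minus Trem2. CD163 and Trem2 lay 0.57 apart, and their order turned after quantile normalization (CD163 minus Trem2 0.22). Ccrl2 lay 0.89 below CD163 on the deposited values and lower still on the quantile scale (-1.27). Against the CD74 ceiling, Trem2 was at least 2.10-fold and CD163 at least 1.41-fold higher, and the Ccrl2 level was under that ceiling.

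Ireb2, which encodes the iron regulatory protein IRP2, was the member with an excess in Trem2. It had 8.46 there, 6.75 in Ccrl2, and, both dim, 6.16 in CD163 and 6.09 in CD74. Trem2 was 3.27-fold above Ccrl2, at least 4.53-fold above CD163 and at least 3.81-fold above CD74. The gaps after quantile normalization were -1.27 for Ccrl2 minus Trem2, -1.60 for CD163 minus Trem2 and 1.56 for Trem2 minus CD74, each still past 2-fold. The lower 3 libraries lay within 0.66 of each other. Of all tested genes, 2.63% were further below Trem2 in Ccrl2 than Ireb2 was. The neutrophil markers also had their highest median in Trem2, at 11.1, with a summed level of 17.06 on the log2 scale against 9.91 or less elsewhere, while B cell markers were called higher there than in Ccrl2 in 4 of 5 cases, than in CD163 in 5 of 5 and than in CD74 in 4 of 5, and monocyte markers in 4, 6 and 4 of 6. The part of these cells in the Ireb2 level was not tested.

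Counted by pair, most members differed between CD74 and the rest, a contrast in which many genes differed. Between Ccrl2 and CD74, 6 of 10 members were higher in Ccrl2 (48.8% of 7902 genes tested) and 0 lower (9.01%), with a median difference of 2.24 against 0.96 over all genes tested. Between CD163 and CD74, 6 were higher in CD163 (34.1% of 5842 genes) and 1 lower, Tfrc (17.5%), with a median over the 9 tested of 2.16 against 0.47. Between Trem2 and CD74, 7 were higher in Trem2 (50.5% of 8522 genes) and 0 lower (7.62%), with a median of 2.22 against 1.01. Counted over all 10 members, the shares called higher in Ccrl2 and Trem2 were thus not far above those of all genes. These 10 include Fth1, which was saturated in each library and could not be called in any pair. Without Fth1 the medians were 2.28 for Ccrl2 minus CD74 and 2.37 for Trem2 minus CD74. The comparisons with CD74 share that library, so they are not separate evidence. Some of these calls rest on dim values. With dim values set at their ceiling, Slc48a1 was under 2-fold in each of these pairs. Blvrb was then under 2-fold against Ccrl2 and CD163, and so was Tfrc between CD163 and CD74.

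The remaining pairs showed smaller separations, with medians near those of all genes. Between Ccrl2 and CD163, Tfrc, Slc11a1 and Ftl1 were higher in Ccrl2 (3 of 10, against 38.5% of 7891 genes) and 0 lower (7.65%), with a median of 0.63 against 0.69. Quantile normalization left 1 higher, Tfrc, and made 1 lower, Blvrb. The Tfrc call has no fold bound, since its CD163 value was dim and its Ccrl2 level lay under the CD163 ceiling. Between Ccrl2 and Trem2, Blvrb and Ireb2 were lower in Ccrl2 (2 of 10, against 11.5% of 8773 genes) and 0 higher (7.79%), with a median of 0.045 against -0.08. Between CD163 and Trem2, Slc40a1, Tfrc, Slc11a1, Ftl1 and Ireb2 were lower in CD163 (5 of 10, against 38.7% of 8532 genes) and 0 higher (7.63%), with a median of -0.82 against -0.69. Of these, Slc40a1 and Tfrc were dim in CD163 and came to at least 1.44-fold and 1.39-fold against its ceiling, under 2-fold. After quantile normalization 2 members were lower in CD163, Tfrc and Ireb2, and 2 higher, Slc11a2 and Ncoa4.

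**Figure D3:**
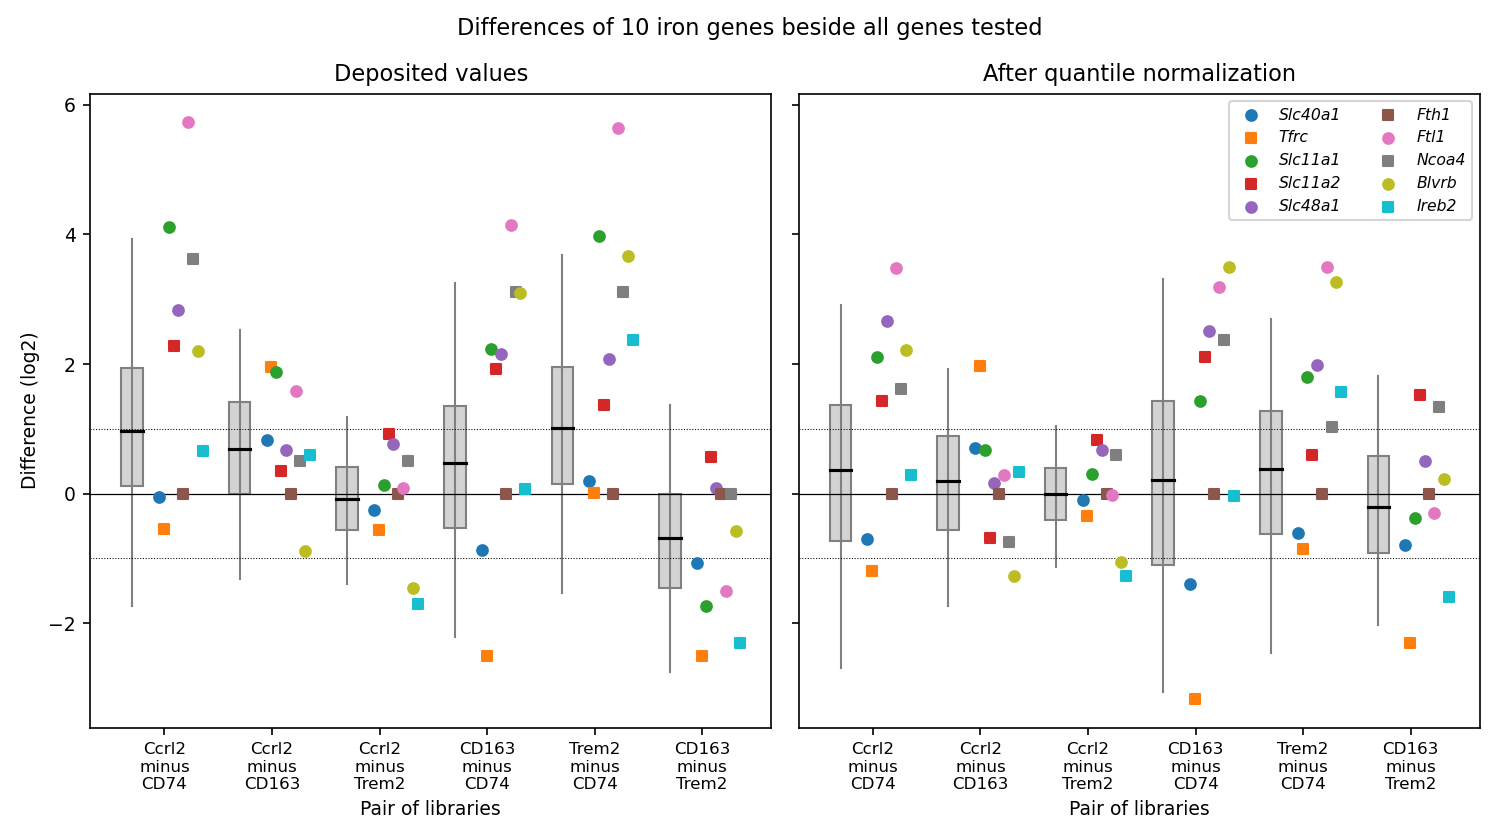
Log2 difference of each iron gene (coloured points) between 2 libraries, beside all genes tested in that pair (grey box from the 25th to the 75th percentile, black median, line from the 5th to the 95th percentile), on the deposited values (left) and after quantile normalization (right). Dotted lines mark 2-fold. Ftl1 lay highest in the 3 pairs with CD74 on the deposited values, and Tfrc lowest wherever CD163 was compared with CD74 or Trem2.

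The genes most alike in pattern were sought for the 3 unsaturated members with the widest range, by the Euclidean distance between centred log2 values over the 4 libraries among 8969 protein-coding genes. For Ftl1 they were Anxa5 (distance 0.36), with 13.40 in Trem2, 13.21 in Ccrl2, 11.71 in CD163 and 7.26 in CD74, then Fcho2 (0.43) and Rtn4 (0.48). For Slc11a1 they were Slc23a2, a vitamin C transporter (0.14), Pde8a (0.22) and the nucleoside transporter Slc29a1 (0.23), of which Slc23a2 had 8.15, 8.14, 6.43 and 4.09 (dim) in the same order of libraries. All 3 were dim in CD74, and Slc29a1 in CD163 as well, where Slc11a1 itself was above the ceiling, so these distances rest partly on background values. For Blvrb they were the recycling endosome GTPase Rab11a (0.31), Fam234a (0.36) and Gabarap, an autophagosome protein (0.54). Rab11a had 10.78, 9.74, 10.43 and 7.43 in that order, while Blvrb itself and Fam234a were dim in CD74. The place of Blvrb among the widest ranges (3.66) rests on that dim value. Ncoa4, above the ceiling in all 4 libraries, had a range of 3.62. With 4 points per gene such closeness is a description only.

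The wider iron pathway was covered by 59 further genes, of which 56 had a named probe set and 40 exceeded the ceiling in at least 1 library. Of 33 tested between Ccrl2 and CD74, 21 were higher in Ccrl2 (48.8% of all genes tested) and 0 lower (9.01%). Of 23 tested between CD163 and CD74, 13 were higher in CD163 (34.1%) and 0 lower (17.5%), and of 38 tested between Trem2 and CD74, 24 were higher in Trem2 (50.5%) and 0 lower (7.62%). The list medians over tested genes were 1.61, 1.08 and 1.53, against 0.96, 0.47 and 1.01 over all genes. Of 35 tested between Ccrl2 and CD163, 10 were higher (38.5%) and 3 lower (7.65%) in Ccrl2. Of 40 tested between Ccrl2 and Trem2, 4 were higher (7.79%) and 4 lower (11.5%) in Ccrl2, and of 38 tested between CD163 and Trem2, 2 were higher (7.63%) and 13 lower (38.7%) in CD163. Of the 94 called differences, 5 changed sign after quantile normalization, all of Bach1 or Pcbp2, and 14 came under 2-fold.

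Capture and breakdown of haem held the largest differences. Hmox1, the inducible haem oxygenase, had 19.58, close to the top of the scale, in both Ccrl2 and CD163, 17.96 in Trem2 and 7.34 in CD74, so that Trem2 was 3.07-fold below the first 2. Hmox2, the constitutive enzyme, had 9.68 in Ccrl2, 9.50 in Trem2, 8.07 in CD163 and 6.02 (dim) in CD74. Cd163, the receptor for haptoglobin bound to haemoglobin, had 14.51 in CD163, 13.11 in Trem2, 13.01 in Ccrl2 and 4.96 (dim) in CD74. Lrp1, which takes up haem bound to haemopexin, had 11.18 in Ccrl2, 11.06 in Trem2, 10.63 in CD163 and 4.67 (dim) in CD74.

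The other haem genes were dimmer. Blvra, which encodes biliverdin reductase A, had 7.27 in Ccrl2, 7.11 in Trem2, 6.57 in CD163 and 5.68 (dim) in CD74. Abcg2, an efflux pump that also carries porphyrins, had 7.85 in CD163, 7.76 in Trem2, 7.10 in Ccrl2 and 5.13 (dim) in CD74, and the haem exporter gene Flvcr1 had 6.32 to 6.72 outside CD74 and 5.70 in it. Hp, which encodes haptoglobin, exceeded the ceiling in Trem2 alone (8.66, against 4.16 to 5.19). Hpx, Flvcr2 and Slc46a1 exceeded it in no library.

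Lcn2, a siderophore-binding protein of neutrophil granules, followed the neutrophil markers, with 13.23 in Trem2, 5.76 in Ccrl2, and 5.62 and 4.57 (both dim) in CD74 and CD163. Hp was highest in the same library. Ltf, the lactoferrin gene, went the other way, dim in every library with 5.06 in Trem2 and 6.05 in CD74. The neutrophil marker Camp was dim in Trem2 too, at 4.27. Whether neutrophil RNA carried Lcn2 and Hp was not tested.

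In the transferrin cycle, Trf, the gene of transferrin itself, had 16.03 in Ccrl2, 15.94 in CD163, 15.67 in Trem2 and 7.46 in CD74, a span of 296-fold in Trem2 to 380-fold in Ccrl2 over CD74. Hfe, a partner of the transferrin receptor, had 8.35 in Trem2, 8.18 in Ccrl2, 6.84 in CD163 and 5.04 (dim) in CD74. Cp, the ferroxidase that works with ferroportin, had 8.84, 8.55 and 8.02 in Ccrl2, CD163 and Trem2 and 6.06 (dim) in CD74. The hepcidin genes Hamp and Hamp2 were highest in CD163 at 6.48 and 7.39, where Hamp2 was 2.79-fold above Ccrl2 and Hamp at least 1.75-fold. These are near-identical genes at levels close to background, so a split between them is uncertain.

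Among the regulators, Spic and Fbxl5 differed between libraries under both scalings, and the order of Bach1 and Aco1 depended on the scaling. Spic, the transcription factor of iron-recycling macrophages in the spleen, had 9.86 in Ccrl2, 8.45 in Trem2, and 6.13 and 4.87 (both dim) in CD163 and CD74. Ccrl2 was 2.66-fold above Trem2, a gap of 1.30 after quantile normalization, and at least 3.58 log2 units above CD163. Fbxl5, which marks IRP2 for destruction when iron is plentiful, was highest in Trem2 like Ireb2, with 9.68 there, 8.79 in Ccrl2, and 6.28 and 5.61 (both dim) in CD163 and CD74. Bach1, the haem-sensing repressor of Hmox1 and ferritin genes, had 10.60 in Ccrl2, 10.45 in Trem2, 9.34 in CD163 and 8.99 in CD74. Quantile normalization put CD74 highest at 10.24, with Ccrl2 minus CD74 turned from 1.61 to -0.41. Aco1, which encodes IRP1, stayed between 6.99 and 7.48 in the 4 libraries on the deposited values and was called in no pair. After quantile normalization 3 pairs passed 2-fold, at -1.05 for Ccrl2 minus CD74, -1.535 for Trem2 minus CD74 and 1.095 for CD163 minus Trem2. Nfe2l2, the gene of NRF2, exceeded the ceiling in Ccrl2 alone, at 6.46.

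Iron delivery inside the cell and haem synthesis made up the rest. The iron chaperone genes Pcbp1 and Pcbp2 were above the ceiling in all 4 libraries, Pcbp1 with 9.95 in CD163, 9.88 in Trem2, 9.70 in Ccrl2 and 7.03 in CD74, and Pcbp2 with 16.88 in Trem2, 16.34 in Ccrl2, 14.91 in CD163 and 14.84 in CD74. After quantile normalization Pcbp2 was highest in CD74 at 16.36, which turned the 2.83-fold excess of Ccrl2 over CD74 to -0.95 and the 4.11-fold excess of Trem2 to -0.35 on the log2 scale. Iscu, the scaffold of iron-sulphur clusters, had 9.21 in Trem2, 8.40 in Ccrl2, 7.02 in CD163 and 6.61 in CD74, 4.56-fold apart between Trem2 and CD163. Of 14 mitochondrial and haem synthesis genes with a probe set, the Ccrl2 library was higher than CD74 for 4 of 9 tested (48.8% of all genes), the Trem2 library for 6 of 9 (50.5%) and the CD163 library for 1 of 4 (34.1%), and 0 were lower.

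**Figure D4:**
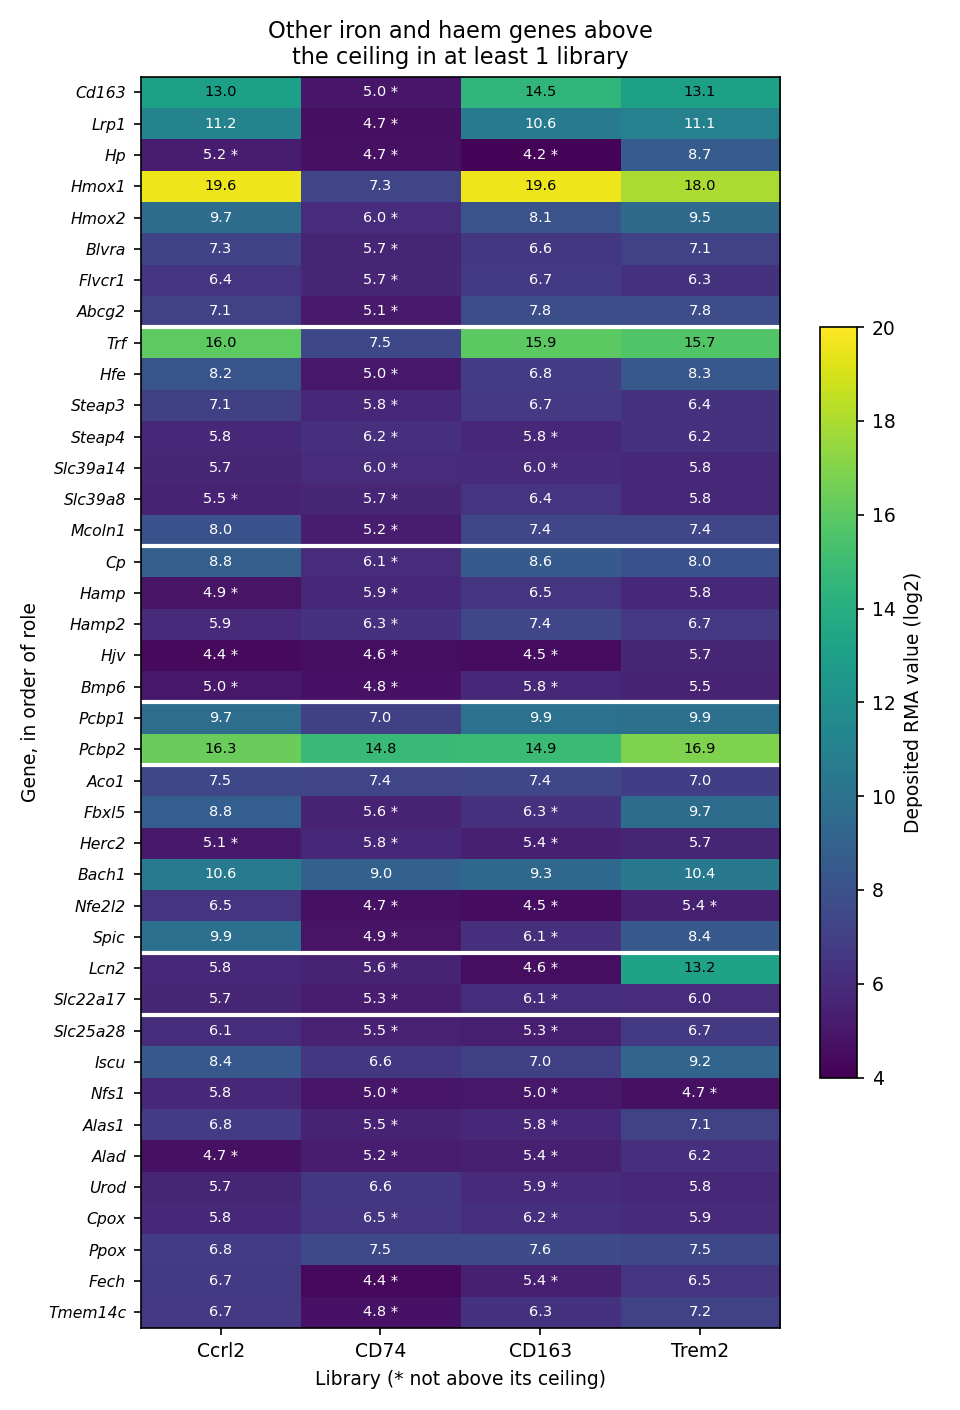
Deposited log2 values (colour and printed number) of the 40 further iron and haem genes above the ceiling in at least 1 of the 4 libraries, in order of role, with values not above their library's ceiling starred. Hmox1 and Trf had 15.67 or more in Ccrl2, CD163 and Trem2 and 7.34 and 7.46 in CD74, still above its ceiling, and Lcn2 and Hp stood out in Trem2.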

How the data were processed

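Gene expression was measured in 4 sorted cardiac populations titled as macrophages, 1 Affymetrix Clariom S mouse array each. The authors deposited log2 values per probe set, made by robust multichip average (RMA), per the labels' protocols, with Affymetrix Expression Console named in the submitters' processing notes. The sources used here do not give the RMA settings or the build of the probe annotation. That the scale is log2 was taken from the values, which end at 19.93. Symbols came from the platform annotation (19572 of 22206 gene probe sets had 1 symbol, 2634 none), with the brightest probe set kept per gene. The ceiling was the 95th percentile of the 1498 chemosensory and keratin-associated genes. A gene was tested in a pair when above the ceiling in at least 1 library and called at 2-fold. Where the lower value was not above its ceiling, a fold is a lower bound against the ceiling ("at least"). Values within 0.015 of the top were taken as saturated. Named were all members, further iron genes with the largest called differences in a pair, and all genes of haem handling. Others named as below the ceiling or for their role were chosen after their values were seen, as were the hypoxia, TATA, CCAAT and PU.1 motifs and the choice of promoters shown. Members and lists were chosen with earlier results of these data known. The call rule was tested on simulated data with an assumed noise and with changes only in genes well above the ceilings. Recovery of changes near background was therefore not covered. Python 3.11.15 with pandas 2.3.3 and numpy 2.4.6 was used. Alternatives are given in the closing section.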

Additional observations from a re-analysis of the deposited data

How the results depend on the processing

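No paired analysis was possible because each population was 1 library. The 12 counts of members at least 2-fold apart stayed within 1.5 times their value under median centring, no background ceiling and a ceiling at the column median. The mean over probe sets and the removal of saturated genes could not change them, since each member had 1 probe set and Fth1, the saturated member, had a difference of 0 in each pair. Quantile normalization moved 6 of them: lower in Ccrl2 than in CD74 from 0 to 1, higher in Ccrl2 than in CD163 from 3 to 1 and lower from 0 to 1, lower in CD163 than in CD74 from 1 to 2, and in CD163 against Trem2 from 0 to 2 higher and from 5 to 2 lower. A 1.5-fold threshold gave 6 higher and 1 lower in Ccrl2 against CD163, 2 higher in Ccrl2 than in Trem2 and 2 lower in CD163 than in CD74. A 4-fold threshold gave 0 higher in Ccrl2 than in CD163, 0 lower in Ccrl2 than in Trem2 and 2 lower in CD163 than in Trem2. Of the 60 differences of single members, none of those called changed sign under quantile normalization or median centring, but 6 came under 2-fold and 5 passed it under quantile normalization. Setting dim values at their ceiling, chosen after seeing the data, left 4 of the 6 members below each other library in CD74 and 0 of 1 in CD163. Why the scalings differ was not tested. Signal over background limits Slc40a1, Tfrc, Slc48a1, Blvrb and Ireb2, as well as Slc11a2 in CD74, and saturation limits Fth1.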
